A study of Homo sapiens with 46 samples.

Results

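Replication licensing loads the DNA helicase onto replication origins, and its genes were followed here through 4 cell states and 4 subcellular RNA fractions of the human pluripotent line H1. The genes are MCM2, MCM3, MCM4, MCM5, MCM6 and MCM7, which encode the 6 subunits of the helicase ring, ORC1, CDC6 and CDT1, which encode loading factors, and MCM10, which encodes a factor of helicase activation. They were taken by gene symbol from the count tables of the 4 cell states, and 10 of 10 were found in every table. The tables hold 21183 Ensembl genes in all, of which 10707 are in each of the 4.

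Undifferentiated H1 cells (hPSC below) were grown in mTeSR1 medium on Matrigel. Endoderm was made with WNT3A and Activin A. Mesoderm was made with Activin A, later withdrawn, together with VEGF, BMP4 and bFGF. Ectoderm was made with A83-01, PNU-74654 and Dorsomorphin in a medium with KOSR. The growth protocol gives 5 days before collection, without saying whether this holds for each lineage, and the labels name no genetic change in any group. The design text of the series speaks of actinomycin D and of transcript half-lives, while no sample label names that drug, and the libraries were taken as not treated with it. From each cell state RNA was taken from the cytoplasm, from part of the nuclear pellet (nucleus below), from the supernatant of lysed nuclei (nucleoplasm) and from the pellet left by that lysis (chromatin). The lysis buffers of all fractions held α-amanitin, an inhibitor of RNA polymerase II. There were 46 libraries, 3 in each of 15 groups and 1 of mesoderm nucleoplasm, and the labels do not say that libraries of a group came from separate cultures, so each p-value measures only the spread between these libraries.

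As background, the origin recognition complex, of which ORC1 is a subunit, marks origins, and CDC6 and CDT1 then help to place a pair of MCM2-MCM7 rings around the DNA before S phase. The rings stay inactive until CDC45 and the GINS complex join them at the start of S phase, with the help of MCM10, and geminin (GMNN) then blocks CDT1 so that no origin is licensed again in the same cycle. Many of these genes are transcribed by E2F factors around the G1/S transition, and pluripotent stem cells are known for a short G1 phase. In bulk RNA a lower level can come from fewer cells in the relevant phase or from less RNA per cell, and these data cannot tell the 2 apart.

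The upstream sequences of 2 members are shown because they contrast a window with E2F-type words and a window without, while in the other windows 115 to 250 of the 250 bases before the start lie in annotated exons. RefSeq's table of gene starts (GRCh38.p14) matched 8 of the 10 members by symbol, and MCM4 and MCM5 were not matched. The words searched on both strands were TTTGGCGC, TTTCCCGC, TTTCGCGC and TTTGCCGC, which can overlap each other, in windows of 300 bases from 250 before to 50 after a start. At least 1 word was found for 6 of the 8 matched members, MCM2, MCM3, MCM6, MCM7, CDC6 and CDT1, and for 3.99% of 27305 genes. No word was found in the windows of MCM10 and ORC1. The pentamer CCAAT, searched in the same way, was found for 6 of the 8 and for 39.7% of the genes. Each line below gives the 250 bases before the start, 5′ to 3′ on the gene's strand, with E2F-type words in capitals. The MCM6 window is chr2:135876444-135876693 on the minus strand and holds a pair of TTTGGCGC words, starting 152 and 90 bases before the start, each overlapped by TTTCGCGC on the opposite strand. The MCM10 window is chr10:13161308-13161557 on the plus strand. A match describes letters only and does not show binding.
MCM6: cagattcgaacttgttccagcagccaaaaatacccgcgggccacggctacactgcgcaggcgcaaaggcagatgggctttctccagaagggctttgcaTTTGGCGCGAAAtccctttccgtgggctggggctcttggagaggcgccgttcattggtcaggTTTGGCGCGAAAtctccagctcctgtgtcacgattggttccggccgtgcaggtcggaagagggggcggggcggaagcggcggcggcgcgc
MCM10: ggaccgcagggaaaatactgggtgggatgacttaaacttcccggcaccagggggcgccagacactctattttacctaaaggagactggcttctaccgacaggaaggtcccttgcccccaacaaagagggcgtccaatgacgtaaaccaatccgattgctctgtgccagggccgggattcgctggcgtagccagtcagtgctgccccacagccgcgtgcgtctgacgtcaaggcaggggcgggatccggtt

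Library totals ran from 4990408 to 21298678 counts, and member counts ran from 60 (MCM10) to 11188 (MCM7), so every member passed the filter on low counts in every fit. Each cell state was counted against its own transcript assembly, so a difference between cell states and a difference between assemblies cannot be told apart. The count columns taken as nucleus carry the code Nei. It was read as nucleus by elimination, as the compartment left beside nucleoplasm, chromatin and cytoplasm, and libraries labelled nucleus here are those so read. The fraction labels were checked with marker genes. Mitochondrial transcripts made up 0.399 to 0.615% of hPSC cytoplasm libraries and 13.1 to 15.3% of hPSC nucleus libraries, with the same order in ectoderm and endoderm and the opposite order in mesoderm (5.84 to 7.46% in cytoplasm and 1.11 to 1.36% in nucleus). Summed nuclear marker RNAs were lower in the libraries labelled nucleus than in cytoplasm in ectoderm (118 to 494 against 1409 to 2537 CPM) and endoderm (123 to 496 against 514 to 712 CPM), overlapped in hPSC and were higher in mesoderm (1269 to 1843 against 616 to 762 CPM). CPM is the count scaled to the library's total. Summed cytoplasmic mRNA markers were higher in cytoplasm than in nucleus in hPSC (42451 to 43090 against 15551 to 20697 CPM), endoderm (39167 to 43903 against 11919 to 13262 CPM) and mesoderm (46607 to 47918 against 11879 to 14794 CPM) and overlapped in ectoderm (41488 to 43481 against 39893 to 51913 CPM). Whether any labels were exchanged was not tested. Comparisons with the libraries labelled nucleus in ectoderm and endoderm are given with that limit. Of the lineage markers, 5 of 5 for endoderm, 4 of 5 for ectoderm and 3 of 6 for mesoderm were over the floor of 3 counts in cytoplasm of their own lineage. Mesoderm markers were also over it in endoderm cytoplasm, 5 of 6, where their sum was 80.7 to 112 CPM against 182 to 199 in mesoderm. In nucleus and on chromatin the order was another. In nucleus their sum was 62.5 to 77.2 CPM in mesoderm, 156 to 217 in endoderm and 391 to 465 in hPSC. On chromatin it was 53.5 to 101 CPM in mesoderm, 145 to 205 in endoderm and 194 to 218 in hPSC. In hPSC 2 of the 6 genes were over the floor. Comparisons of mesoderm nucleus and chromatin with hPSC are given with this marker order as a limit. Summed pluripotency markers were 5643 to 5976 CPM in hPSC cytoplasm, 4158 to 4617 in endoderm, 2489 to 2605 in mesoderm and 1994 to 2512 in ectoderm. Of these 5 genes, 4 were over the floor in endoderm and ectoderm cytoplasm and 3 in mesoderm. Some of these RNAs, not all, were thus still measured in the differentiated cultures, and the sums do not say which. SOX2 is in both the pluripotency and the ectoderm list.

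In the cytoplasm the 6 helicase subunits together were highest in hPSC, lower in endoderm, then mesoderm, and lowest in ectoderm. They made up 2219 to 2688 CPM in hPSC, 1795 to 2154 in endoderm, 919 to 1064 in mesoderm and 708.9 to 716.2 in ectoderm. These sums did not overlap between any pair of cell states. Values per library are given below for the cytoplasm, in the order of the replicate numbers, and the plot of levels by fraction shows all libraries.

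MCM2 (chr3:127598223-127622436, plus strand, GRCh38) stood at 265, 349 and 372 CPM in hPSC, at 224, 269 and 294 in endoderm, at 120, 100 and 104 in mesoderm and at 120, 126 and 113 in ectoderm. MCM3 (chr6:52264009-52284881, minus strand) stood at 460, 514 and 561 in hPSC, at 341, 399 and 438 in endoderm, at 210.3, 190.1 and 190.1 in mesoderm and at 141, 147 and 145 in ectoderm. MCM5 (chr22:35400063-35425430, plus strand) stood at 394, 429 and 441 in hPSC, at 252, 272 and 339 in endoderm, at 146, 115 and 135 in mesoderm and at 63.9, 66.8 and 71.9 in ectoderm. MCM2 and MCM5 sit side by side in the ring, at the gate through which DNA enters, and of the 2 only MCM5 separated mesoderm from ectoderm without overlap. MCM4 stood at 238, 318 and 364 in hPSC, at 312, 337 and 318 in endoderm, at 185, 156 and 150 in mesoderm and at 105, 104 and 98.5 in ectoderm. MCM6 (chr2:135839626-135876426, minus strand) stood at 203, 249 and 262 in hPSC, at 254, 266 and 257 in endoderm, at 125, 108 and 106 in mesoderm and at 99.3, 93.9 and 87.0 in ectoderm. These 2 subunits, which with MCM7 form the catalytic core of the ring, overlapped between hPSC and endoderm, with the higher mean in endoderm (322 against 307 CPM for MCM4 and 259 against 238 for MCM6). MCM7 (chr7:100092728-100101940, minus strand) stood at 660, 658 and 688 in hPSC, at 412, 439 and 509 in endoderm, at 278, 250 and 256 in mesoderm and at 179, 179 and 199 in ectoderm, with no overlap between cell states.

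ORC1 (chr1:52372829-52404459, minus strand), an ATPase of the origin recognition complex, stood at 60.1, 62.2 and 68.9 CPM in hPSC, at 39.9, 48.5 and 54.8 in endoderm, at 24.9, 22.1 and 25.7 in mesoderm and at 21.9, 19.6 and 21.6 in ectoderm. CDC6 (chr17:40287633-40304657, plus strand), the ATPase that joins ORC to load the helicase, stood at 134, 139 and 145 in hPSC, at 101, 116 and 103 in endoderm, at 64.6, 59.5 and 57.1 in mesoderm and at 24.5, 23.9 and 22.1 in ectoderm. Its 4 cell states did not overlap. CDT1 (chr16:88803213-88809258, plus strand), which brings the helicase to ORC and CDC6, stood at 121, 147 and 146 in hPSC, at 105, 104 and 125 in endoderm, at 102, 92.4 and 105 in mesoderm and at 70.9, 70.1 and 72.6 in ectoderm. Its endoderm libraries overlapped both hPSC and mesoderm, and those of ectoderm were apart from all others. MCM10 (chr10:13161554-13211104, plus strand) stood at 39.0, 49.9 and 56.4 in hPSC, at 29.1, 33.2 and 35.3 in endoderm, at 27.7, 19.7 and 20.1 in mesoderm and at 14.9, 13.0 and 14.7 in ectoderm. Mesoderm replicate 1 came close to the lowest endoderm library, without overlap.

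**Figure D1:**
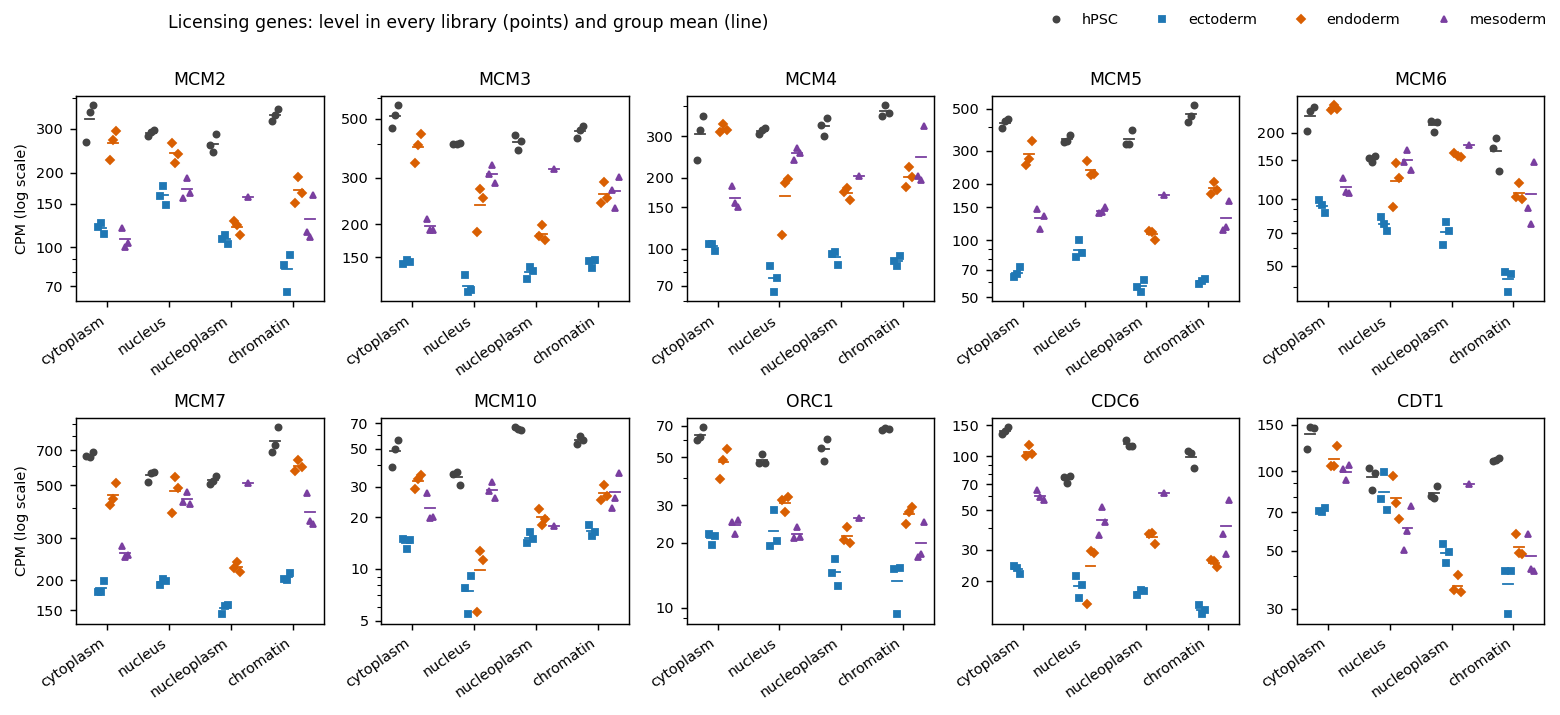
CPM (log axis) for the 10 genes in every library, by fraction and cell state; each point is a library and each short line a group mean. In cytoplasm the hPSC libraries lie above the mesoderm and ectoderm libraries for all 10 genes, and for MCM2, MCM4, MCM6 and CDT1 they overlap endoderm.

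Compared per length, with the authors' TPM (a unit scaled to depth and transcript length), MCM7 had the highest level in all 16 groups. In hPSC cytoplasm MCM7 was at 298 ± 44 TPM (SD, n = 3), above MCM3 at 176 ± 39, MCM5 at 130 ± 24 and MCM2 at 103 ± 30. MCM4 at 80.3 ± 26, MCM6 at 67.4 ± 17 and CDT1 at 57.1 ± 13 followed, and each neighbouring pair from MCM3 to CDT1 overlapped between libraries. CDC6 at 31.8 ± 5.2, ORC1 at 22.1 ± 4.2 and MCM10 at 11.2 ± 3.3 were the lowest 3. The 6 subunits enter the ring in equal number. Their RNA levels per length differed by 2.63 to 10.3 times between the highest and lowest subunit of a library. On ectoderm chromatin the lowest member was CDC6 at 6.51 ± 0.92 TPM, overlapping MCM10 at 7.86 ± 1.1. On endoderm chromatin it was CDC6 at 9.42 ± 1.3, below MCM10 at 14.8 ± 2.3 without overlap. In ectoderm cytoplasm CDT1, at 34.4 ± 4.3 TPM, ranked above MCM4, MCM6 and MCM5, while in hPSC cytoplasm it ranked below them; its neighbours MCM4 and MCM6 overlapped it in ectoderm.

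**Figure D2:**
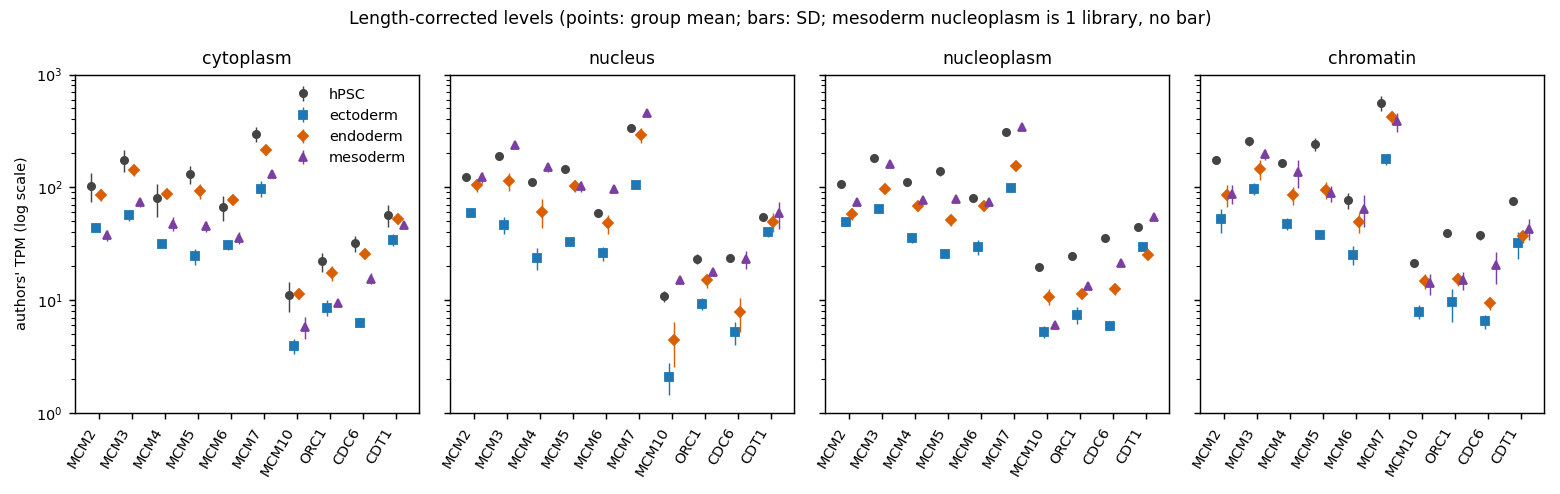
The authors' TPM of each gene (log axis) in the 16 groups of cell state and fraction; points are group means and bars SD, and mesoderm nucleoplasm is 1 library with no bar. MCM7 is the highest gene in every group, and MCM10 or CDC6 the lowest.

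In ectoderm cytoplasm all 10 licensing genes were lower than in hPSC, where 37.9% of the 10679 genes tested were called lower. Differences are given as log2 changes after TMM scaling, with standard errors, from edgeR's quasi-likelihood test at an adjusted p under 0.05; they can differ from ratios of CPM, by most in endoderm, where library totals moved the median of all genes by 0.72 between cytoplasm and nucleus and by 0.62 between chromatin and nucleoplasm. MCM5 fell by 2.72 ± 0.13 (SE; 6.60-fold; adjusted p = 1.68e-10) and CDC6 by 2.65 ± 0.10 (6.28-fold; adjusted p = 1.98e-11). MCM7 fell by 1.93 ± 0.11 (adjusted p = 5.89e-10) and MCM3 by 1.91 ± 0.12 (adjusted p = 1.83e-09). The other 6 fell by 1.04 (CDT1) to 1.86 (MCM10). The median over the 10 was -1.77, against 0.01 over all genes tested. The ectoderm and hPSC libraries did not overlap for any of the 10, while the share of all genes without overlap was not counted.

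Mesoderm cytoplasm was also lower than hPSC for all 10 genes, with 33.4% of genes called lower. MCM5 fell by 1.73 ± 0.13 (3.32-fold; adjusted p = 2.37e-08) and MCM2 by 1.66 ± 0.14 (3.17-fold; adjusted p = 1.02e-07). ORC1 fell by 1.45 ± 0.13 (adjusted p = 1.19e-07) and MCM3 by 1.43 ± 0.12 (adjusted p = 6.52e-08). CDT1 changed least, by -0.52, a call lost on TPM (-0.28, adjusted p = 0.16), and the median over the 10 was -1.34.

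Endoderm cytoplasm was lower than hPSC for 8 of the 10, with 28.6% of genes called lower, and the changes were smaller. MCM10 fell by 0.75 ± 0.14 (1.68-fold; adjusted p = 0.000383), a direction that turned on the authors' TPM (0.05). MCM7 fell by 0.73 ± 0.10 (1.66-fold; adjusted p = 3.45e-05), MCM5 by 0.72 ± 0.13 (adjusted p = 0.000206) and ORC1 by 0.59 ± 0.12 (adjusted p = 0.000829). MCM4 at -0.10 and MCM6 at -0.05 did not pass the test. On TPM 2 of the 10 were called in place of 8, with ORC1 at -0.31 (adjusted p = 0.16), and on that scale the median of all genes tested shifted by 0.27. Libraries did not overlap for 6 of the 10, and here too the share of all genes without overlap was not counted.

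The lineages were also compared with each other, with endoderm as the reference. Ectoderm cytoplasm was lower than endoderm for 10 of the 10 (38.0% of genes called lower), led by CDC6, which fell by 2.09 ± 0.10 (adjusted p = 1.11e-10), and MCM5, which fell by 2.00 ± 0.13 (adjusted p = 3.18e-09). MCM4 fell by 1.56 ± 0.13 (adjusted p = 5.25e-08) and MCM6 by 1.38 ± 0.11 (adjusted p = 1.86e-08). Mesoderm cytoplasm was lower than endoderm for 9 of the 10 (28.7% called lower). Here MCM2 fell by 1.17 ± 0.14 (adjusted p = 5.72e-06), MCM6 by 1.08 ± 0.10 (adjusted p = 6.21e-07), MCM5 by 1.01 ± 0.13 (adjusted p = 9.13e-06) and MCM3 by 0.88 ± 0.12 (adjusted p = 1.42e-05). CDT1 was at -0.04 and did not pass, and MCM10 at -0.42 lost its call without endoderm replicate 2 or 3 (-0.41 and -0.35) or mesoderm replicate 2 or 3 (-0.32 and -0.36). The comparisons with hPSC share the hPSC libraries, and these share the endoderm libraries.

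**Figure D3:**
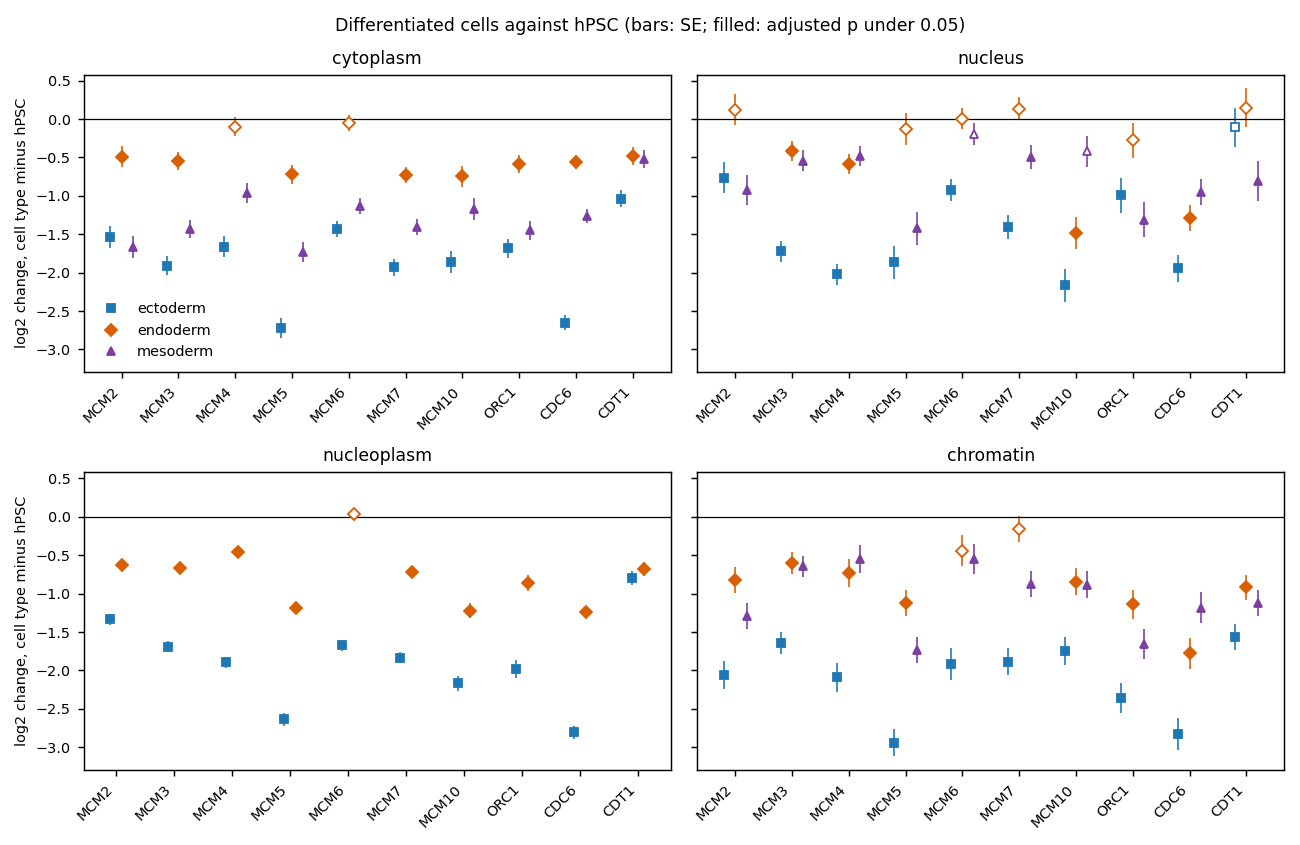
Log2 change of each gene against hPSC within a fraction (edgeR, TMM scaling), by lineage; bars are standard errors, filled symbols passed an adjusted p under 0.05, and the line at 0 marks no change. In cytoplasm the ectoderm values run from -2.72 (MCM5) to -1.04 (CDT1) and are the lowest for every gene but MCM2. On TPM the sign turned for MCM10 in endoderm cytoplasm and for MCM3, MCM4, MCM7 and CDT1 in mesoderm nucleus.

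In nucleoplasm ectoderm was lower than hPSC for 10 of the 10 (39.5% of genes called lower) and endoderm for 9 (40.2%). CDC6 was at 123, 114 and 115 CPM in hPSC nucleoplasm, at 36.6, 37.1 and 32.5 in endoderm and at 16.9, 17.8 and 17.6 in ectoderm. It fell by 2.81 ± 0.09 in ectoderm (adjusted p = 9.64e-18) and by 1.24 ± 0.08 in endoderm (adjusted p = 3.44e-12). MCM5 was at 323, 324 and 384 CPM in hPSC, at 113, 111 and 100.1 in endoderm and at 56.7, 53.2 and 62.0 in ectoderm, and fell by 2.63 ± 0.08 (adjusted p = 1.21e-17) in ectoderm and by 1.19 ± 0.08 (adjusted p = 5.12e-12) in endoderm. MCM10 fell by 2.17 ± 0.10 (adjusted p = 7.37e-15) in ectoderm and by 1.22 ± 0.10 (adjusted p = 9.02e-11) in endoderm, and ORC1 by 1.98 ± 0.11 (adjusted p = 3.67e-13) and 0.86 ± 0.11 (adjusted p = 2.02e-07). MCM6 in endoderm nucleoplasm was at 0.03 and did not pass. The lone mesoderm nucleoplasm library, with no replicate, held 62.5 CPM of CDC6, 174 of MCM5, 17.7 of MCM10 and 510.0 of MCM7.

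On chromatin ectoderm was lower than hPSC for 10 of the 10 (32.4% of genes called lower), endoderm for 8 (33.0%) and mesoderm for 10 (27.4%). MCM5 was at 423, 460 and 521 CPM on hPSC chromatin, at 177, 205 and 186 in endoderm, at 114, 119 and 162 in mesoderm and at 58.7, 60.8 and 62.8 in ectoderm. It fell by 2.94 ± 0.17 in ectoderm (7.68-fold; adjusted p = 1.27e-08), by 1.12 ± 0.16 in endoderm (adjusted p = 5.95e-05) and by 1.73 ± 0.17 in mesoderm (adjusted p = 1.75e-06). CDC6 fell by 2.82 ± 0.21 (adjusted p = 8.24e-08), 1.78 ± 0.20 (adjusted p = 6.01e-06) and 1.18 ± 0.20 (adjusted p = 0.000203) in ectoderm, endoderm and mesoderm. CDC6 was at 107, 104 and 85.7 CPM on hPSC chromatin, at 26.2, 26.0 and 24.0 in endoderm, at 37.1, 28.6 and 57.0 in mesoderm and at 14.8, 13.1 and 13.8 in ectoderm. ORC1 fell by 2.36 ± 0.20 (adjusted p = 2.58e-07), 1.14 ± 0.19 (adjusted p = 0.000169) and 1.66 ± 0.19 (adjusted p = 1.06e-05) in the same order. MCM4 fell by 2.09 ± 0.19 in ectoderm (adjusted p = 5.09e-07), CDT1 by 0.92 ± 0.17 in endoderm (adjusted p = 0.00034) and MCM2 by 1.29 ± 0.17 in mesoderm (adjusted p = 3.75e-05). MCM6 and MCM7 in endoderm did not pass (-0.44 and -0.16). In mesoderm the MCM6 value of -0.55 lost its call without hPSC chromatin replicate 1 or 2 (-0.52 and -0.45) or mesoderm chromatin replicate 1 or 2 (-0.44 and -0.37), and the MCM4 value of -0.55 lost its call without hPSC chromatin replicate 2 (-0.51) or mesoderm chromatin replicate 1 or 2 (-0.42 each). Mesoderm chromatin replicate 3 was above the other 2 for 8 of the 10, all but MCM7 and CDT1. Its mitochondrial share was 5.53%, against 1.12 and 0.769% in the other 2, and the part of this in the levels was not tested. On TPM 6 of the 10 were called in mesoderm chromatin, with MCM6 at -0.27, MCM4 at -0.28, MCM3 at -0.38 and MCM7 at -0.56 not called.

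In the libraries labelled nucleus ectoderm was lower than hPSC for 9 of the 10 (28.9% of genes called lower), endoderm for 4 (29.3%) and mesoderm for 8 (28.0%). MCM10 was at 35.5, 36.7 and 30.8 CPM in hPSC, at 28.3, 31.9 and 25.9 in mesoderm, at 5.57, 12.7 and 11.2 in endoderm and at 7.75, 5.45 and 9.09 in ectoderm. It fell by 2.16 ± 0.21 in ectoderm (4.48-fold; adjusted p = 1.45e-06) and by 1.48 ± 0.21 in endoderm (2.79-fold; adjusted p = 5.08e-05). CDC6 was at 77.1, 70.8 and 78.1 in hPSC, at 36.3, 52.1 and 43.2 in mesoderm, at 15.0, 29.7 and 28.9 in endoderm and at 21.3, 16.2 and 19.1 in ectoderm, and fell by 1.95 ± 0.17 in ectoderm (adjusted p = 5.23e-07), by 1.29 ± 0.17 in endoderm (adjusted p = 2.7e-05) and by 0.95 ± 0.17 in mesoderm (adjusted p = 0.000348). Endoderm nucleus replicate 1 was the lowest of its 3 for both genes. In ectoderm MCM4 fell by 2.02 ± 0.14 (adjusted p = 4.99e-08) and MCM5 by 1.86 ± 0.21 (adjusted p = 6.18e-06), while CDT1 at -0.11 did not pass. In endoderm MCM4 fell by 0.59 ± 0.13 (adjusted p = 0.0022) and MCM3 by 0.42 ± 0.13 (adjusted p = 0.0159), the latter not passing without hPSC nucleus replicate 2 (-0.38, adjusted p = 0.063). On library totals without TMM 7 of the 10 were called lower in endoderm, a scale on which the median of all genes shifted by -0.39. In mesoderm MCM5 fell by 1.42 ± 0.21 (adjusted p = 8.58e-05), ORC1 by 1.31 ± 0.23 (adjusted p = 0.000375) and MCM2 by 0.92 ± 0.20 (adjusted p = 0.00147). The mesoderm values of MCM3, MCM4, MCM7 and CDT1 (-0.54, -0.48, -0.49 and -0.81) turned positive on TPM (0.33, 0.42, 0.42 and 0.08), a scale on which the median of all genes shifted by 0.79 and MCM7 was called higher (adjusted p = 0.0146). On TPM the mesoderm calls of MCM2 (-0.018, adjusted p = 0.91), ORC1 (-0.38, adjusted p = 0.065) and CDC6 (-0.046, adjusted p = 0.88) were lost. The MCM7 call was lost without hPSC nucleus replicate 2 or 3 (-0.46 each) or mesoderm nucleus replicate 3 (-0.45), and the CDT1 call without hPSC nucleus replicate 1 (-0.76) or mesoderm nucleus replicate 1 or 2 (-0.71 and -0.77).

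Within hPSC, 6 of the licensing genes were higher in cytoplasm than in nucleus (35.6% of 13997 genes were called higher and 30.0% lower). The other 4 did not pass. CDC6 rose from 77.1, 70.8 and 78.1 CPM in nucleus to 134, 139 and 145 in cytoplasm, a log2 change of 0.83 ± 0.11 (1.78-fold; adjusted p = 1.89e-05). MCM6 rose from 154, 148 and 158 to 203, 249 and 262 (0.57 ± 0.13; adjusted p = 0.00166), and CDT1 from 103, 84.8 and 98.4 to 121, 147 and 146 (0.47 ± 0.10; adjusted p = 0.00125). For these 3 genes the groups did not overlap. MCM10 was at 0.43 ± 0.13 (adjusted p = 0.0087). The CDT1 call was lost without nucleus replicate 2 (0.27, adjusted p = 0.075) and the MCM10 call without any 1 of the 3 nucleus libraries (0.27 to 0.37). On TPM the calls of MCM6 (0.15), CDT1 (0.052) and MCM10 (0.013) were lost. ORC1 at 0.32 and MCM3 at 0.28 turned on TPM (-0.09 and -0.14), and passed in 1 and 0 of the 6 fits with a library left out. Their calls were also lost by DESeq2 (0.25, adjusted p = 0.054, and 0.20, adjusted p = 0.059). On TPM 2 of the 10 were called, CDC6 and a member not among the 6.

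In the lineages members were called in both directions between cytoplasm and nucleus. In endoderm and mesoderm these counts lay near the shares of all genes given beside them. In ectoderm 1 member was called higher in cytoplasm (28.7% of 15668 genes) and 4 lower (24.8%). MCM2 was at 161, 176 and 148 CPM in the libraries labelled nucleus and 120, 126 and 113 in cytoplasm (-0.75 ± 0.15; adjusted p = 0.00105). MCM5 was lower in cytoplasm by 0.73 ± 0.16 (adjusted p = 0.00181) and MCM10 was higher by 0.65 ± 0.14 (adjusted p = 0.00162). CDT1 was at -0.56 ± 0.19 (adjusted p = 0.024), a call lost without nucleus replicate 2 (-0.23, adjusted p = 0.14) or without cytoplasm replicate 1 or 3 (-0.51 and -0.56). MCM7 at -0.41 lost its call without cytoplasm replicate 1 (-0.34, adjusted p = 0.054). Library totals lost the calls of CDT1 (-0.18) and MCM7 (-0.052), and TPM those of MCM2 (-0.45, adjusted p = 0.065), MCM5 (-0.41, adjusted p = 0.070), CDT1 (-0.23) and MCM7 (-0.11). On TPM 1 of the 10 was called. Beside these values, the nuclear marker RNAs were lower in the ectoderm libraries labelled nucleus, and their part in the result was not tested.

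In endoderm 3 members were called higher in cytoplasm (34.3% of 12693 genes) and 3 lower (35.5%). CDC6 rose from 15.0, 29.7 and 28.9 CPM to 101, 116 and 103 (1.45 ± 0.15; 2.74-fold; adjusted p = 7.96e-07). MCM10 rose from 5.57, 12.7 and 11.2 to 29.1, 33.2 and 35.3 (1.06 ± 0.18; adjusted p = 0.000116). For both genes every cytoplasm library was above every nucleus library. MCM6 was at 0.40 ± 0.13 (adjusted p = 0.00993). MCM7 was at -0.76 ± 0.14 (adjusted p = 0.000187), while its CPM of 412, 439 and 509 in cytoplasm overlapped 384, 543 and 487 in nucleus and its value on library totals was -0.045 (adjusted p = 0.78). MCM2 at -0.62 ± 0.19 (adjusted p = 0.0104) and MCM5 at -0.49 ± 0.20 (adjusted p = 0.0381) turned to 0.15 and 0.29 on library totals without TMM, where the median of all genes shifted by 0.72. Their calls were lost without cytoplasm replicate 1 (-0.51 and -0.39, adjusted p = 0.057 and 0.14), and that of MCM5 also without nucleus replicate 1 (-0.19) or cytoplasm replicate 2 (-0.45). The nuclear marker RNAs were lower in the endoderm libraries labelled nucleus too, and their part was not tested.

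In mesoderm 2 members were called higher in cytoplasm (32.1% of 14408 genes) and 4 lower (31.2%). CDT1 rose from 50.0, 59.3 and 73.8 CPM to 102, 92.4 and 105 (0.82 ± 0.17; adjusted p = 0.00119), and CDC6 from 36.3, 52.1 and 43.2 to 64.6, 59.5 and 57.1 (0.57 ± 0.21; adjusted p = 0.0341). Both were negative on TPM (-0.31 and -0.53), where the median of all genes shifted by -0.83, and the CDC6 call was lost on library totals (0.45, adjusted p = 0.083) and without any of 5 of the 6 libraries (0.46 to 0.57). MCM7 was at 278, 250 and 256 CPM in cytoplasm and 426, 467 and 418 in nucleus (-0.64 ± 0.16; adjusted p = 0.00385). MCM2 at -0.56 ± 0.17 (adjusted p = 0.0113) and MCM3 at -0.56 ± 0.15 (adjusted p = 0.00611) were also lower in cytoplasm, and MCM4 at -0.53 passed in 0 of the 6 fits with a library left out.

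Chromatin was compared with nucleoplasm in the 3 cell states with replicates of both. MCM6 was lower on chromatin in each of them with TMM scaling, while on TPM its calls were lost in hPSC (-0.068, adjusted p = 0.75) and ectoderm (-0.22, adjusted p = 0.35). In hPSC 3 members were lower (13.5% of genes called lower): MCM6, at 171, 190 and 134 CPM on chromatin and 225, 202 and 224 in nucleoplasm, was at -0.63 ± 0.13 (adjusted p = 0.00362), CDC6 at -0.48 ± 0.11 (adjusted p = 0.00561) and MCM10 at -0.46 ± 0.13 (adjusted p = 0.0161). CDC6 and MCM10 turned on TPM (0.08 and 0.11), where 7 members were called higher, the median of all genes shifted by 0.47 and 96.7% of called genes were higher, against 55.8% with TMM and 78.8% on library totals. The calls of CDC6 (-0.32, adjusted p = 0.054) and MCM10 (-0.29, adjusted p = 0.16) were also lost on library totals. The MCM10 call was lost without nucleoplasm replicate 1 (-0.43, adjusted p = 0.061).

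In ectoderm 5 members were lower on chromatin (21.7% of genes called lower). MCM6, at 47.0, 38.0 and 45.7 CPM on chromatin and 62.2, 78.6 and 71.8 in nucleoplasm, was at -0.91 ± 0.13 (adjusted p = 0.000106). MCM2 at -0.61 ± 0.15 (adjusted p = 0.00571), CDT1 at -0.61 ± 0.19 (adjusted p = 0.0218), CDC6 at -0.53 ± 0.11 (adjusted p = 0.00203) and MCM4 at -0.25 turned positive on TPM (0.06, 0.06, 0.13 and 0.41), and the CDT1 call was lost without nucleoplasm replicate 1 (-0.54, adjusted p = 0.075) and the MCM4 call without nucleoplasm replicate 1 or 2 (-0.23 and -0.24) or chromatin replicate 1 (-0.31). In endoderm 3 were lower (30.7%) and 1 higher (22.9%). MCM6, at 103, 118 and 99.7 CPM on chromatin and 162, 157 and 156 in nucleoplasm, was at -1.14 ± 0.13 (2.21-fold; adjusted p = 2.96e-06), and CDC6 at -1.06 ± 0.15 (adjusted p = 4.09e-05), a call lost on library totals (-0.44, adjusted p = 0.11) and on TPM (-0.37, adjusted p = 0.17). MCM7, at 575, 639 and 598 on chromatin and 225, 239 and 217 in nucleoplasm, was higher by 0.84 ± 0.14 (1.79-fold; adjusted p = 0.000134). MCM4 at -0.35 turned to 0.27 on library totals and 0.29 on TPM, and lost its call in all refits without a library except the refit without chromatin replicate 2 (-0.39 to -0.28). In the mesoderm nucleoplasm library MCM6 was at 176 CPM, and on mesoderm chromatin at 91.6, 77.2 and 148, with no test.

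**Figure D4:**
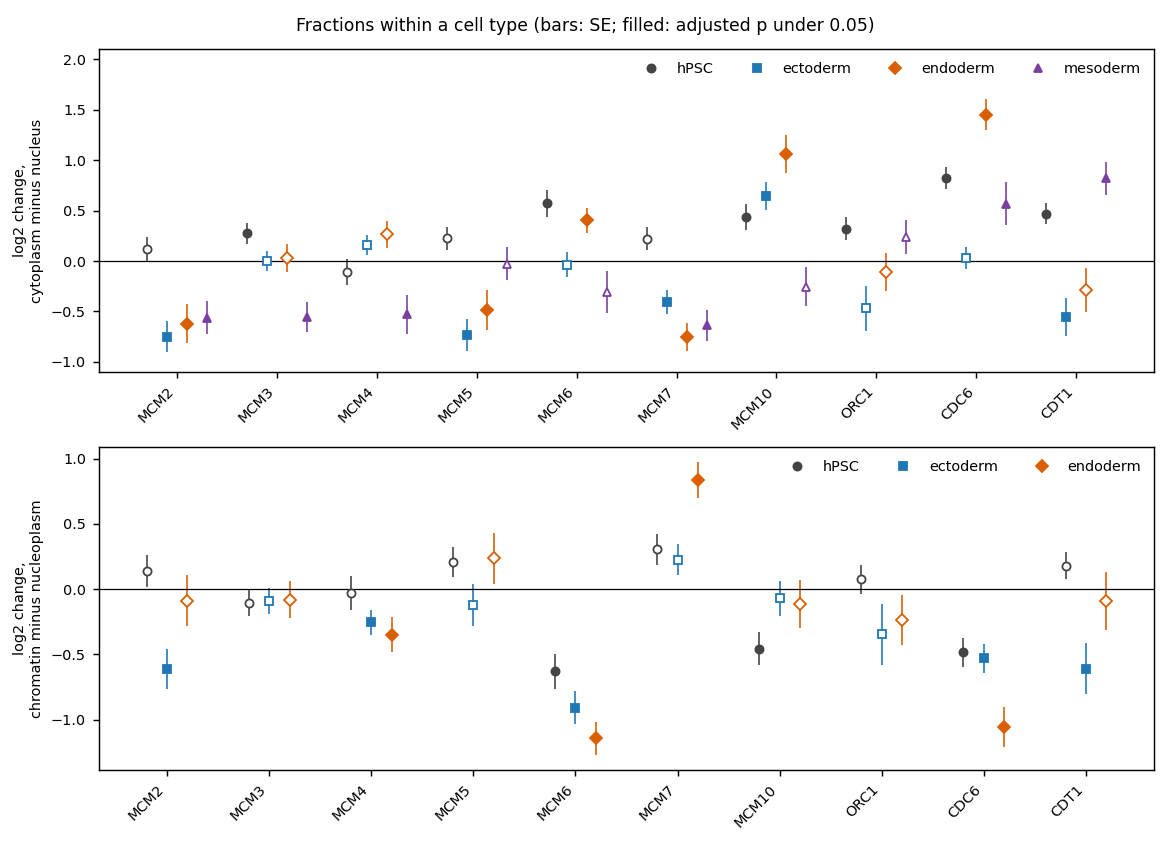
Log2 differences of each gene between cytoplasm and nucleus and between chromatin and nucleoplasm (edgeR, TMM scaling), by cell state; bars are standard errors and filled symbols passed an adjusted p under 0.05. MCM6 is below 0 for chromatin against nucleoplasm in all 3 cell states tested (-0.63, -0.91 and -1.14), though its calls in hPSC and ectoderm were lost on TPM; signs that depend on the scaling are, in that comparison, those of CDC6 and MCM10 in hPSC, of CDC6, MCM2, MCM4 and CDT1 in ectoderm and of MCM4 in endoderm, and, between cytoplasm and nucleus, those of ORC1 and MCM3 in hPSC, CDC6 and CDT1 in mesoderm and MCM2 and MCM5 in endoderm.

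Whether the cytoplasm to nucleus difference itself changed with cell state was tested with an interaction term against hPSC. In ectoderm it was lower for 7 of the 10 (24.5% of 10687 genes called lower), led by CDT1 at -0.86 ± 0.28 (adjusted p = 0.0132), MCM5 at -0.79 ± 0.24 (adjusted p = 0.00814), MCM2 at -0.70 ± 0.24 (adjusted p = 0.0165) and CDC6 at -0.64 ± 0.19 (adjusted p = 0.0078). Leaving out ectoderm nucleus replicate 2 lost the calls of MCM2 (-0.55, adjusted p = 0.063) and CDT1 (-0.61, adjusted p = 0.062), and the call of CDC6 was lost on library totals (-0.54, adjusted p = 0.11). On TPM all 7 calls were lost, that of MCM5 at -0.22 (adjusted p = 0.42), and the 1 member called there was not among the 7. In endoderm the difference was higher for 2 (19.6% called higher) and lower for 3 (18.3% called lower). MCM7 was at -0.89 ± 0.16 (adjusted p = 0.000427), a call lost on library totals (-0.39, adjusted p = 0.067) and on TPM (-0.24, adjusted p = 0.38), and CDC6 at 0.70 ± 0.19 (adjusted p = 0.00662), while MCM10 at 0.70 ± 0.25 (adjusted p = 0.0342) lost its call without any of 6 of the 12 libraries and MCM2 at -0.64 ± 0.24 (adjusted p = 0.036) without any of 7 (-0.66 to -0.41) and on library totals (-0.11, adjusted p = 0.69). In mesoderm it was lower for 3 (6.89% called lower), MCM6 at -0.81 ± 0.16 (adjusted p = 0.00126), MCM7 at -0.79 ± 0.17 (adjusted p = 0.00171) and MCM3 at -0.76 ± 0.16 (adjusted p = 0.00187).

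MCM7 had a pair of isoforms that were distributed differently between the fractions. Member isoforms numbered 14 in the hPSC table, 19 in ectoderm, 15 in endoderm and 12 in mesoderm, and of these 1, 4, 4 and 0 were assembled isoforms not listed in GENCODE 29. For the members other than MCM10 in endoderm, whose isoforms there are all unlisted, the isoform with the most counts was a listed one. MCM7-201 (ENST00000303887, 15 exons, 2957 bases) was the leading MCM7 isoform in every library but ectoderm chromatin replicate 2, where an unlisted isoform held 30.9% of MCM7 counts and MCM7-201 25.0%. MCM7-213 (ENST00000621318, 14 exons, 3084 bases) keeps intron 4 of MCM7-201, a stretch of 75 bases at chr7:100099204-100099278 on the minus strand of GRCh38. It also runs further at its 3′ end, to 100092729 against 100092781 for MCM7-201. Because these isoforms differ at both places, the share of MCM7-213 does not measure intron retention alone.

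In hPSC MCM7-213 was at 26.5, 16.8 and 21.9 CPM in cytoplasm, 42.3, 32.6 and 41.1 in nucleus, 30.9, 26.9 and 26.7 in nucleoplasm and 76.3, 70.7 and 127 on chromatin. As a share of all MCM7 counts it was 2.55 to 4.02% in cytoplasm, 5.80 to 8.19% in nucleus, 4.86 to 6.12% in nucleoplasm and 9.65 to 14.5% on chromatin. Cytoplasm was the lowest and chromatin the highest fraction, without overlap with the others. In ectoderm the shares were 4.77 to 10.5%, 10.8 to 17.1%, 8.38 to 13.3% and 20.1 to 20.7%, in the same order of fractions, and in endoderm 1.68 to 2.19%, 5.60 to 13.1%, 6.29 to 7.52% and 24.3 to 27.2%. Chromatin was the highest fraction in all 3, and the mesoderm table holds MCM7-201 alone.

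The isoforms were tested in fits over all isoforms of a table. Between cytoplasm and nucleus 39.7% of hPSC isoforms were called, 13.7% in ectoderm and 42.1% in endoderm. In hPSC MCM7-201 was higher in cytoplasm (0.31 ± 0.09; adjusted p = 0.019) and MCM7-213 lower (-0.86 ± 0.23; adjusted p = 0.013), the only pair of isoforms of a member called in opposite directions there, although MCM7-201 turned to -0.14 on TPM. The MCM7-201 call was lost without nucleus replicate 1 (0.24) or cytoplasm replicate 2 (0.30), and that of MCM7-213 without cytoplasm replicate 2 (-0.72, adjusted p = 0.050). In ectoderm MCM7-213 was at -1.26 ± 0.24 (adjusted p = 0.0073), a call lost on TPM (-0.86, adjusted p = 0.062), and MCM7-201 at -0.55 (adjusted p = 0.11). In endoderm MCM7-213 was at -2.94 ± 0.31 (adjusted p = 2.8e-05) and MCM7-201 at -0.40 (adjusted p = 0.015), which turned to 0.08 on library totals and was lost without cytoplasm replicate 1 or 2 (-0.33 and -0.38).

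Between chromatin and nucleoplasm, values chosen for naming after they were seen, MCM7-213 was higher on chromatin in hPSC (1.41 ± 0.23; adjusted p = 0.0078; 9.75% of isoforms called), in ectoderm (0.89 ± 0.24; adjusted p = 0.037; 13.9% called) and in endoderm (2.56 ± 0.30; adjusted p = 0.00012; 29.9% called). MCM7-201 did not pass in hPSC (0.16) or endoderm (0.32) and was lower on chromatin in ectoderm (-0.87 ± 0.20; adjusted p = 0.020). Both ectoderm calls were lost without any of several libraries (MCM7-213 without 5 of the 6, adjusted p = 0.093 to 0.12, and MCM7-201 without 4 of the 6). The ectoderm call of MCM7-201 was also lost on library totals (-0.48, adjusted p = 0.091) and on TPM (-0.027, adjusted p = 0.93). That of MCM7-213 was also lost with no filter on low counts (0.87, adjusted p = 0.051) and with the replicate block (0.89, adjusted p = 0.065). An unlisted MCM7 isoform made up 17.0 to 21.1% of ectoderm chromatin MCM7 counts and 0.560 to 2.11% of cytoplasm counts, and another 24.4 to 30.9% on chromatin, so that MCM7-201 was 25.0 to 36.9% there.

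**Figure D5:**
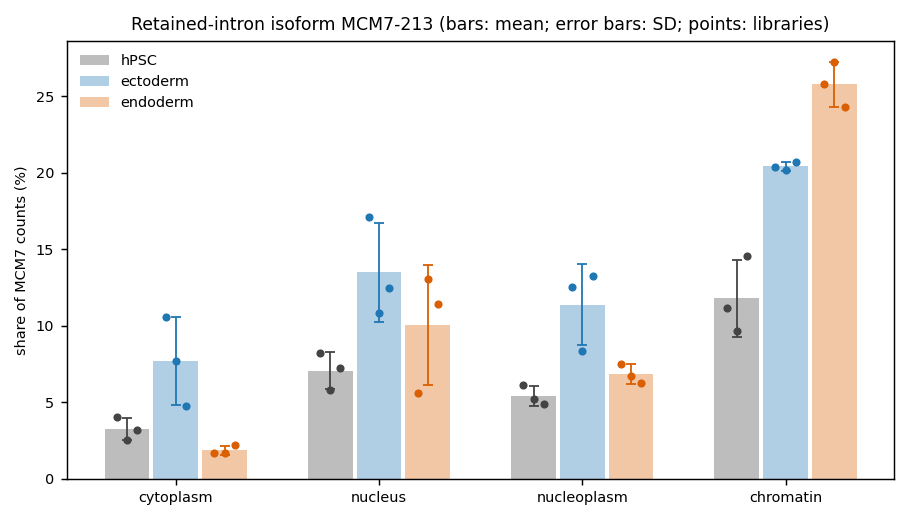
Share of all MCM7 counts (percent) that went to the intron-retaining isoform MCM7-213, by fraction and cell state; each point is a library. Chromatin libraries are highest in all 3 cell states, at 9.65 to 14.5% in hPSC, 20.1 to 20.7% in ectoderm and 24.3 to 27.2% in endoderm.

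The isoforms called between cytoplasm and nucleus were 8 of 14 in hPSC, 3 of 18 tested in ectoderm, 7 of 15 in endoderm and 2 of 12 in mesoderm, where 32.0% of isoforms were called. Named after their values were seen, an unlisted MCM3 isoform made up 31.0 to 48.0% of ectoderm MCM3 counts over all fractions, and an unlisted CDT1 isoform was lower in endoderm cytoplasm than in nucleus (-3.43 ± 0.72; adjusted p = 0.0028). This CDT1 isoform was low in both, at 0.38, 0.43 and 0.75 CPM in cytoplasm and 4.1, 4.9 and 3.1 in nucleus. The limit given above for the endoderm libraries labelled nucleus holds here too.

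The members varied together over the libraries, as a description with no test. Over the 46 libraries, which share cell states and fractions, Pearson's r of log CPM was 0.675 to 0.961 for the 15 pairs among MCM2 to MCM7, with a median of 0.845. For the 30 pairs that include ORC1, CDC6, CDT1 or MCM10 it was 0.326 to 0.940, with a median of 0.755. Among 9186 genes ranked by the correlation of their 16 group means with the mean pattern of MCM2 to MCM7, MCM5 (0.979) and MCM3 (0.976) came first, ranks that are partly built in because both are in that mean, and CDT1 ranked 719 and MCM10 389. The 5 non-member genes most like that pattern were CTPS1 (0.972), GART (0.970), METTL1 (0.967), TLE1 (0.956) and VRTN (0.956).

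Other genes of origin licensing and replication were followed as lists in the cytoplasm, against hPSC. Of 10 other origin and licensing genes 7 fell and 1 rose in ectoderm, 3 fell and 2 rose in endoderm, and 6 fell and 1 rose in mesoderm. Over all genes tested 38.0%, 29.6% and 34.6% were called higher in these 3 comparisons, beside the shares called lower given above. GMNN, which encodes the inhibitor of CDT1, fell in all 3, by 1.88 ± 0.14 in ectoderm (adjusted p = 9.89e-09), 0.75 ± 0.13 in endoderm (adjusted p = 0.000224) and 1.47 ± 0.13 in mesoderm (adjusted p = 2.25e-07). MCM9, a relative of the helicase subunits that acts in recombination with MCM8, rose in all 3, by 1.28 ± 0.16, 1.68 ± 0.16 and 2.28 ± 0.16 (adjusted p = 4.32e-06, 5.83e-07 and 1.28e-08). The medians of the list were -0.57, -0.16 and -0.35, closer to 0 than those of the 10 members (-1.77, -0.55 and -1.34).

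Of 11 helicase activation genes tested, 8 fell and 1 rose in ectoderm, 7 fell and 1 rose in endoderm, and 9 fell and the other 2 did not pass in mesoderm. GINS2, a subunit of the GINS complex, fell by 2.36 ± 0.13 in ectoderm (adjusted p = 4.72e-10), 0.79 ± 0.12 in endoderm (adjusted p = 6.42e-05) and 1.21 ± 0.12 in mesoderm (adjusted p = 6.85e-07). CDC45, which completes the active helicase, fell by 1.90 ± 0.16, 0.76 ± 0.15 and 1.43 ± 0.16 (adjusted p = 4.34e-08, 0.000602 and 1.4e-06). Of 23 replisome genes tested, 17 fell and 1 rose in ectoderm, 13 fell and 1 rose in endoderm, and 19 fell and 1 rose in mesoderm. PCNA, the sliding clamp, fell by 2.25 ± 0.12 in ectoderm (adjusted p = 4.0e-10) and FEN1, the flap nuclease, by 1.66 ± 0.10 (adjusted p = 1.37e-09). POLE2, a subunit of DNA polymerase epsilon, was at 23.2 to 26.5 CPM in hPSC and 0.188 to 0.327 in endoderm and fell by 6.72 ± 0.20 (adjusted p = 2.21e-12), where the endoderm assembly and the cell state cannot be told apart. PRIM1, the primase catalytic subunit, rose by 2.01 ± 0.14 in endoderm (adjusted p = 1.42e-08) and 1.72 ± 0.14 in mesoderm (adjusted p = 6.02e-08).

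The 19 tested regulators of the G1/S transition moved in both directions, with 7 up and 7 down in ectoderm, 5 up and 8 down in endoderm, and 8 up and 7 down in mesoderm. CDKN1C, an inhibitor of cyclin-dependent kinases, rose by 4.88 ± 0.26 in ectoderm (adjusted p = 4.24e-10), 6.85 ± 0.26 in endoderm (adjusted p = 2.82e-11) and 4.69 ± 0.26 in mesoderm (adjusted p = 1.26e-09). CCNE1, which encodes cyclin E1, fell by 3.04 ± 0.14 in ectoderm (adjusted p = 7.59e-11) and 1.52 ± 0.13 in mesoderm (adjusted p = 7.64e-08). CDK6 fell by 3.60 ± 0.26 in endoderm (adjusted p = 1.97e-08) and rose by 2.52 ± 0.20 in mesoderm (adjusted p = 4.12e-08). The medians over all genes tested in these fits lay within 0.01 of 0 in all 3.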

How the data were processed

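RNA of 16 groups of cell state and fraction was sequenced in 46 libraries. The authors deposited estimated counts per isoform, whole numbers as deposited, and TPM for each cell state's own transcript assembly; RSEM, STAR and hg38 are named, with no role, per the submitters' processing notes. Counts without an Ensembl gene were 0.277 to 9.60% of a library, and 2 columns that match no sample were not used. Isoform counts were summed per gene and tested with edgeR 4.0.16 (R 4.3.3; quasi-likelihood, TMM, filterByExpr with a minimum count of 10, Benjamini-Hochberg adjusted p under 0.05 over all genes tested), within each cell state for fractions and within each fraction for cell states. The scripts were checked on simulated data. Alternatives were library totals, DESeq2 1.42.0, no filter, a replicate block, leaving out each library, and limma 3.58.1 on log2(TPM + 1). An assembly combined over cell states was used between fractions of ectoderm only. Positions are those of GENCODE 29. Reads carry no molecular identifiers, so depth limits counting error only. In each comparison at most the 4 called members with the largest changes, and any called against the direction of most, are named with their tests, and at most 4 genes per other list; other isoforms named are said to be so. The members and lists were chosen with earlier results of these data known.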

Additional observations from a re-analysis of the deposited data

Results flagged for a closer look

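The cytoplasm to nucleus difference of 15 gene and lineage combinations differed from that of hPSC by the interaction test of edgeR, given here as the log2 difference in the lineage minus that in hPSC. In ectoderm these were CDT1 (-0.86), MCM5 (-0.79), MCM2 (-0.70), CDC6 (-0.64), ORC1 (-0.62), MCM7 (-0.46) and MCM6 (-0.45). The ORC1 value was -0.32 (adjusted p = 0.24) without ectoderm nucleus replicate 2 and lost its call in 8 of the 12 fits with a library left out, and MCM6 (-0.37 without that library) lost it in 7 and MCM7 (-0.36 without it) in 3. On TPM MCM6 (0.09) and MCM7 (0.08) changed sign, and the calls of CDT1 (-0.28), MCM5 (-0.22), CDC6 (-0.15), MCM2 (-0.14) and ORC1 (-0.020) were lost. On library totals the calls of CDC6 (-0.54), ORC1 (-0.48), MCM7 (-0.35) and MCM6 (-0.34) were lost.

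In endoderm the differences were MCM7 (-0.89), MCM2 (-0.64), MCM5 (-0.61), MCM10 (0.70) and CDC6 (0.70). MCM2 (0.03) and MCM5 (0.04) changed sign on TPM. The calls of MCM7 (-0.39), MCM2 (-0.11) and MCM5 (-0.070) were lost on library totals, and that of MCM7 (-0.24) on TPM. MCM5 lost its call without any of 7 of the 12 libraries, with the smallest value without endoderm nucleus replicate 1 (-0.37, adjusted p = 0.16). In mesoderm they were MCM6 (-0.81), MCM7 (-0.79) and MCM3 (-0.76), each called in all 12 fits with a library left out. In ectoderm and endoderm the libraries labelled nucleus had fewer nuclear marker RNAs than cytoplasm, and in mesoderm the mitochondrial share was higher in cytoplasm than in nucleus; the part of either in these differences was not tested.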

How the results depend on the processing

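The values below are for alternatives to TMM-scaled edgeR fits. With the authors' TPM the number of members called changed from 6 to 2 (hPSC cytoplasm against nucleus), 3 to 7 (hPSC chromatin against nucleoplasm), 5 to 1 and 5 to 3 (the same 2 comparisons in ectoderm), 8 to 2 (endoderm cytoplasm against hPSC), 8 to 3 (mesoderm nucleus) and 10 to 6 (mesoderm chromatin). For the differences between cytoplasm and nucleus against those of hPSC it changed from 7 to 1 (ectoderm), 5 to 3 (endoderm) and 3 to 9 (mesoderm). Library totals gave 7 (endoderm nucleus), 5 (mesoderm nucleus) and, for these differences, 3, 3 and 6, and DESeq2 gave 5 for that of mesoderm. The members called on TPM can be other members than those called with TMM. None of the 3 calls of hPSC chromatin against nucleoplasm was kept on TPM. The same held for the 5 calls of ectoderm chromatin against nucleoplasm and for the 7 of the ectoderm difference.

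Member isoforms called between cytoplasm and nucleus were 2 on TPM in hPSC; 6 on library totals, 7 by DESeq2 and 0 on TPM in ectoderm; and 4, 5 and 9 in mesoderm. Between chromatin and nucleoplasm they were 7 on TPM in hPSC, 2 on library totals in ectoderm, and 7 on both scales in endoderm.

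Signs turned on TPM for cytoplasm against nucleus of ORC1 (-0.086) and MCM3 (-0.14) in hPSC and CDC6 (-0.53) and CDT1 (-0.31) in mesoderm; for chromatin against nucleoplasm of MCM10 (0.11) and CDC6 (0.081) in hPSC, MCM2 (0.057), CDC6 (0.13), MCM4 (0.41) and CDT1 (0.062) in ectoderm, and MCM4 (0.29) in endoderm. Against hPSC they turned for MCM10 in endoderm cytoplasm (0.048) and for MCM4 (0.42), MCM3 (0.33), MCM7 (0.42) and CDT1 (0.085) in mesoderm nucleus. They also turned for the cytoplasm to nucleus differences of MCM6 (0.089) and MCM7 (0.081) in ectoderm and MCM2 (0.027) and MCM5 (0.044) in endoderm, and for the listed MCM3 isoform (-0.12) and MCM7-201 (-0.14) between cytoplasm and nucleus in hPSC. On library totals they turned in endoderm for MCM2 (0.15), MCM5 (0.29) and MCM7-201 (0.077) in cytoplasm against nucleus and for MCM4 (0.27) in chromatin against nucleoplasm. All 26 kept their original sign once the median of all features was subtracted in both settings.

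With 1 library left out at a time, members called ranged over 2 to 5, 3 to 6, 4 to 6 and 4 to 5 (cytoplasm against nucleus in hPSC, ectoderm, endoderm and mesoderm), 2 to 3, 3 to 5 and 3 to 4 (chromatin against nucleoplasm in the first 3), 3 to 5 (endoderm nucleus against hPSC), and 2 to 7, 2 to 7 and 3 to 6 (the differences against hPSC). Member isoforms ranged over 3 to 10, 1 to 5, 6 to 8 and 1 to 2, and for chromatin over 1 to 3, 4 to 7 and 4 to 4. The counts that follow cover single members called with TMM, and called isoforms of MCM7, MCM3 and CDT1 where these had several. On library totals 153 results kept direction and call (19 lost it and 4 turned), and by DESeq2 173 did (3 lost the call). Without the filter 175 did (1 lost) and on TPM 119 (35 lost and 22 turned). The combined assembly was fitted between fractions of ectoderm only, where 10 of 10 called results held. No comparison with hPSC used it.

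Replicate numbers were shared between groups, but samples with the same number did not deviate together throughout. In hPSC 7 of 18 pairs correlated above 0.1 (r from -0.15 to 0.28). In ectoderm 6 of 18 did (-0.42 to 0.49), in endoderm 3 of 18 (-0.61 to 0.31) and in mesoderm 2 of 9 (-0.41 to 0.24). For nucleus and cytoplasm of replicates 1, 2 and 3, r was 0.28, 0.15 and 0.087 in hPSC and 0.49, 0.29 and -0.11 in ectoderm. It was -0.19, 0.31 and -0.61 in endoderm and 0.24, 0.16 and -0.18 in mesoderm. With the replicate number as a block 6 single results lost their call, 170 did not, and the isoform count in mesoderm went from 2 to 1.

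The share of all called genes that were higher moved by over 10 points on TPM for cytoplasm against nucleus (54.2 to 34.0% in hPSC, 53.7 to 75.5% in ectoderm, 49.2 to 62.9% in endoderm, 50.7 to 10.7% in mesoderm), chromatin against nucleoplasm (49.7 to 96.4% in ectoderm, 42.8 to 75.8% in endoderm), cytoplasm against hPSC (50.9 to 77.4% in endoderm, 50.9 to 63.8% in mesoderm) and mesoderm against endoderm (47.2 to 36.8%). It also moved for nucleus (49.9 to 29.4%, 48.9 to 31.2% and 48.2 to 88.4% in ectoderm, endoderm and mesoderm), endoderm nucleoplasm (47.9 to 37.3%), chromatin (46.7 to 36.4% in endoderm, 49.7 to 65.7% in mesoderm) and the differences against hPSC (52.7 to 82.2%, 51.8 to 94.6% and 73.1 to 5.29%). On library totals it was 78.0, 71.8, 67.5 and 75.6% for ectoderm and endoderm cytoplasm against nucleus and chromatin against nucleoplasm, 28.5 and 24.3% for endoderm nucleus and nucleoplasm, and 89.9 and 36.9% for the endoderm and mesoderm differences.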
